A study of Arabidopsis thaliana with 12 samples.

Results

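The roots and the shoots of wild-type Arabidopsis thaliana (Col-0) were compared in seedlings 8 days old, kept at 22 °C under white light that was left on throughout at 15 µE. WT roots and WT shoots had 3 RNA sequencing libraries each, 6 of the 12 in the series. The other 6 came from roots and shoots of plants of the same age that overexpress CCA1 (CCA1-ox), whose line and promoter the sources used here do not give. Levels are the authors' deposited FPKM, that is, the fragments of a gene for each kilobase of its length, scaled to a library size the authors chose. A value with ± is a mean with its SD over 3 libraries. Fold changes are log2, WT roots minus WT shoots, of FPKM + 1, and a gene is called where limma's adjusted p over all genes is under 0.05. Of the 33010 genes in the table, 20354 reached 1 FPKM in 3 or more of the 6 WT libraries and were compared; of the other 12656, 6182 had no fragment in any of them. Each library is a whole organ, so fewer cells of a type and less RNA per cell cannot be told apart, and no harvest time is given. Nothing in the labels says that the libraries came from separate cultures; the p-values therefore measure the spread between these samples alone, and that spread may be technical.

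A seedling root takes up water and mineral ions through root hairs and the outer cell layers. The endodermis, a cell layer sealed by the Casparian strip and later by suberin, controls what reaches the xylem. Cotyledons and young leaves hold green chloroplasts, where light harvesting complexes feed the photosystems and Rubisco fixes carbon, and their epidermis carries stomata and a waxy cuticle. Root plastids are not green: they import sugar phosphates and make reducing power from them, with enzyme isoforms of their own.

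The organ labels were checked with markers. The 15 root hair markers summed to 154 to 159 FPKM in WT roots and to 0.270 to 0.485 FPKM in WT shoots, and the 5 root cap markers to 18.7 to 19.7 FPKM in WT roots and to 0.121 to 0.269 in WT shoots. The 22 light harvesting and Rubisco small subunit genes summed to 129 to 135 FPKM in WT roots and to 80495 to 81121 FPKM in WT shoots. The 14 stomatal markers summed to 0.856 to 1.02 FPKM in WT roots and to 141 to 145 in WT shoots. Other marker lists separated the organs less. Endodermis genes summed to 388 to 400 FPKM in WT roots and to 22.8 to 25.2 in WT shoots. Root meristem and lateral root genes summed to 129 to 133 and 67.3 to 69.9, and leaf polarity and shoot apex genes to 70.5 to 74.2 and 386 to 397. By these sums no library went against its label. Depth was similar, with 37773138 to 45051329 fragments in WT roots and 39683894 to 44242304 in WT shoots. Root RNA was spread over more genes: 1576 to 1588 genes held 50% of the fragments in each WT root library, against 980 to 989 in WT shoots. The 10 most abundant genes held 4.05% to 4.08% in WT roots and 7.21% to 7.23% in WT shoots. Of the genes named by rule, 5 (FD1, GLT1, LNK4, ABCB4 and CYCD3;1) overlap a gene on the same strand and 49 one on the other strand, so part of their fragments may belong to a neighbour.

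Most measured genes differed between the organs. Of 20354 genes 17894 were called (87.9%) at an adjusted p under 0.05, 9253 higher in WT roots (45.5%) and 8641 lower (42.5%). A call is therefore the rule here, and size says more. On a scale that, with 1 added, understates the change of low genes, 4236 genes were at least 2-fold higher in WT roots (20.8%) and 3913 at least 2-fold lower (19.2%). With 5 added in place of 1 these counts were 2495 and 2724, and scaled to summed fragments 5376 and 3328, so which side held more depended on the setting. At 4-fold there were 2025 higher and 2091 lower, at 16-fold 491 and 650, and at 64-fold 96 and 192, folds that on this scale only abundant genes can reach. At the other end 2066 called genes differed by under 0.25 log2. Libraries of the organs did not overlap for 17985 genes (88.4%). A mean of at least 5 FPKM in roots with at most 3 fragments in all shoot libraries together was seen for 249 genes, and the reverse for 184. The split of calls depended on scaling: 51.7% of called genes were higher in roots as deposited, and 65.6% when each library was scaled to its summed fragments. That scaling moved the median of all genes by 0.30, to 0.34.

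**Figure D1:**
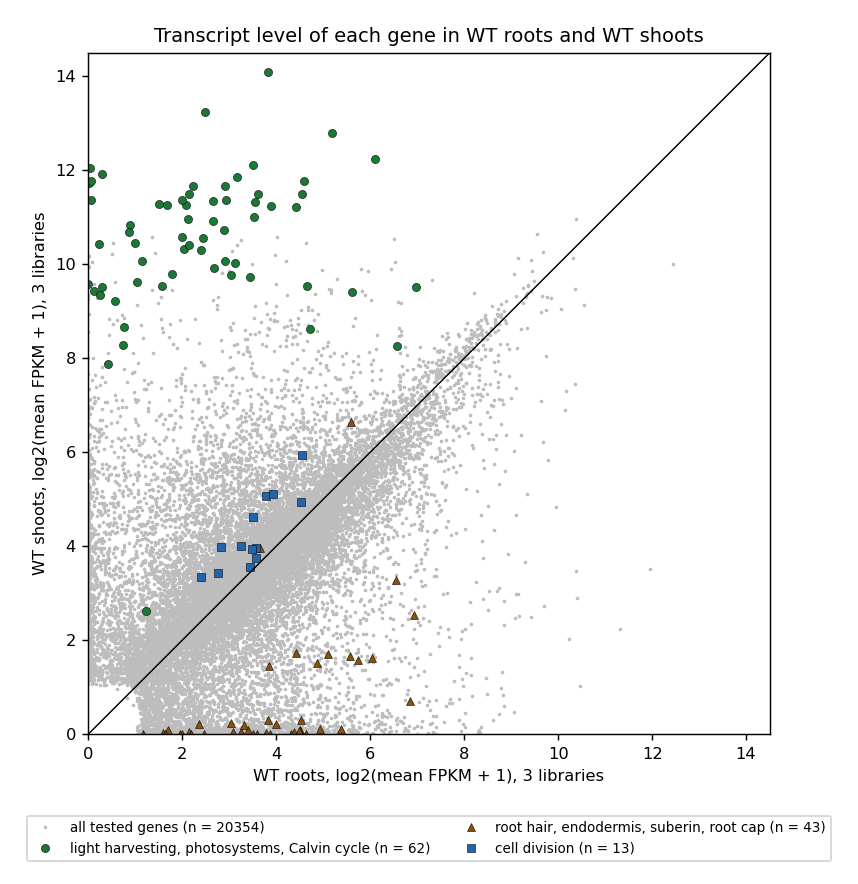
Mean level of each gene in WT roots (x axis) and WT shoots (y axis), both as log2(FPKM + 1) over 3 libraries; the line marks equal levels. Green circles (light harvesting, photosystem and Calvin cycle genes, 62 in all) lie in the upper left. Most brown triangles (root hair, endodermis, suberin and root cap genes, 43) lie in the lower right and the 13 cell division genes (blue squares) just above the line in the deposited scaling.

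The 8 highest rises in WT roots, ranked on log2(FPKM + 1), included a fatty acid dioxygenase, 2 glycine-rich proteins and 2 extensin-type cell wall proteins. That ranking favours genes abundant in roots. On plain means AT1G23720 was 15417-fold higher in roots and DOX1, first in the ranking, 1376-fold. DOX1 (AT3G01420, chromosome 3, 159450 to 162905), an α-dioxygenase that oxidises fatty acids, had 1401, 1423 and 1390.0 FPKM in WT roots, against 0.857, 1.097 and 1.11 FPKM in WT shoots (log2 fold change 9.44, SE 0.0474, adjusted p = 2.27e-14). The glycine-rich protein gene GRP9 (AT2G05440) had 2738, 2439 and 2458 FPKM in WT roots, against 3.52, 4.07 and 3.54 FPKM in WT shoots (9.08, SE 0.0557, adjusted p = 6.28e-14). EXT3 (AT1G21310), an extensin that crosslinks the cell wall, had 4026, 3881 and 4073 FPKM in WT roots, against 9.77, 10.5 and 10.8 FPKM in WT shoots (8.46, SE 0.0355, adjusted p = 8.67e-15). The rule for the 8 rises required that root and shoot libraries did not overlap, as was so for 88.4% of all tested genes. The other 5 were the flavonol synthase family gene FLS5 (AT5G63600, 8.59), the glycine-rich gene AT2G05510 (8.33), the latex-protein-like gene MLP329 (AT2G01530, 8.33), the extensin-like gene AT1G23720 (8.31) and the osmotin gene OSM34 (AT4G11650, 8.25). The most abundant root transcript, the ER body β-glucosidase PYK10 (AT3G09260), was also high in shoots, at 5579.6, 5576 and 5599 FPKM in WT roots, against 1041, 1042 and 1017 FPKM in WT shoots (2.43, adjusted p = 7.30e-14). The glutathione transferase GSTU19 (AT1G78380) had 1505 ± 30.4 FPKM in WT roots and 564 ± 3.36 in WT shoots (1.41).

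All 8 deepest falls, ranked on log2(FPKM + 1), were light harvesting or Rubisco genes. That ranking favours genes abundant in shoots. On plain means GOX1 (AT3G14420), outside the 8, was 9071.5-fold lower in roots, and LHCB1.3, among them, 1334-fold. LHCB1.4 (AT2G34430; LHB1B1 in the table), a chlorophyll-binding protein of photosystem II, had 0.0175, 0.0588 and 0 FPKM in WT roots, against 4212, 4320.3 and 4247 FPKM in WT shoots (−12.02, SE 0.0280, adjusted p = 8.97e-16). The 3 root libraries held 5 of its fragments together, and the 3 shoot libraries 634466. The Rubisco small subunit gene RBCS2B (AT5G38420, chromosome 5, 15380907 to 15382071) had 0, 0.0206 and 0 FPKM in WT roots, against 3414, 3449 and 3359 FPKM in WT shoots (−11.72, adjusted p = 6.93e-16), from 1 fragment in roots. The most abundant transcript of the comparison, LHCB1.3 (AT1G29930; CAB1 in the table), had 12.4, 12.5 and 14.4 FPKM in WT roots, against 17346, 17539 and 17440.0 FPKM in WT shoots (−10.28, adjusted p = 1.77e-14). The rule for the 8 falls also required that root and shoot libraries did not overlap. RBCS3B (AT5G38410, −11.71), LHCB1.2 (AT1G29910, −11.62), LHCB1.1 (AT1G29920, −11.31), RBCS1A (AT1G67090, −10.76) and LHCB2.2 (AT2G05070, −10.19) complete the 8. Another abundant shoot gene, LHCB1.5 (AT2G34420; LHB1B2), had 35.5 ± 1.67 FPKM in WT roots and 7111 ± 109 in WT shoots (−7.61). These genes have near-identical copies, so the split of fragments among LHCB1 or RBCS genes is uncertain. How the counter treated fragments that match several copies is not given in the sources used here, so their sums may be affected too.

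Genes of photosynthesis were lower in roots. The light harvesting and Rubisco list fell in all of its 22 genes (median log2 fold change −9.40, against 0.031 over all genes tested). So did all 26 photosystem and electron transport genes (−7.94), 14 Calvin cycle genes (−7.92), 13 chlorophyll synthesis genes (−5.53) and the 9 photorespiration genes compared (−5.13). The smallest change among the light harvesting genes was that of LHCB4.3 (AT2G40100), already low in shoots at 1.35 ± 0.104 FPKM in WT roots and 5.10 ± 0.762 in WT shoots (−1.37); the other 21 fell by at least 16-fold. In photosystem I, PSAH2 (AT1G52230) had 0.753, 0.742 and 1.05 FPKM in WT roots, against 1880.1, 1812 and 1784 FPKM in WT shoots (−9.95), and the subunit genes PSAE1, PSAL and PSAG lay between −9.78 and −9.38. The photosystem II gene PSBR (AT1G79040) held the most RNA in roots of the 26, with 64.9, 68.1 and 69.9 FPKM in WT roots, against 4892, 4923 and 4704 FPKM in WT shoots (−6.14). Even this gene was far below its shoot level in every root library.

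Carbon fixation and pigment enzymes showed the same separation. Rubisco activase (RCA, AT2G39730) had 10.3 ± 0.474 FPKM in WT roots and 4429.5 ± 68.98 in WT shoots (−8.61). The aldolase FBA2 (AT4G38970) had 0.820 ± 0.139 FPKM in WT roots and 1650.1 ± 23.02 in WT shoots (−9.83) and phosphoribulokinase (PRK, AT1G32060) 0.218 ± 0.0642 FPKM in WT roots and 735 ± 17.9 in WT shoots (−9.24). PORB (AT4G27440), which reduces protochlorophyllide in light, had 1.90 ± 0.338 FPKM in WT roots and 628 ± 3.37 in WT shoots (−7.77). CRD1 (AT3G56940), which closes the fifth ring of chlorophyll, had 7.33 ± 0.342 FPKM in WT roots and 1243 ± 19.3 in WT shoots (−7.22). FBA1 (AT2G21330, −9.09) and GAPB (AT1G42970, −8.93), also of the cycle, and GUN4 (AT3G59400, −7.02) and PORC (AT1G03630, −6.67), of chlorophyll synthesis, also fell. For photorespiration, glycolate oxidase GOX1 (AT3G14420) had 0.0844 ± 0.0438 FPKM in WT roots and 766 ± 7.84 in WT shoots (−9.47). The serine transferase SHM1 (AT4G37930) had 17.3 ± 0.193 FPKM in WT roots and 1068 ± 5.77 in WT shoots (−5.87). HPR1 (AT1G68010, −8.21) and GDCH (AT2G35370, −7.30) of the same cycle fell too. Groups did not overlap in any of these genes, as was so for 88.4% of all tested genes. PGLP1 (AT5G36700), of which the genome holds a near-identical copy, was listed at 0.164 FPKM or less in every library and was not compared.

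Light-responsive plant promoters often carry a G-box (CACGTG) or an I-box core (GATAAG, read as CTTATC on the other strand). Windows of 250 bases before the RefSeq gene start (TAIR10.1) are shown for 2 light harvesting or Rubisco genes. They have the highest shoot level among called genes of that list that hold either motif in a window no other annotated gene overlaps. Capitals mark the motifs. LHCA4 (AT3G47470) lies at chr3:17495034-17495283, minus strand, and RBCS2B at chr5:15382072-15382321, minus strand.
LHCA4: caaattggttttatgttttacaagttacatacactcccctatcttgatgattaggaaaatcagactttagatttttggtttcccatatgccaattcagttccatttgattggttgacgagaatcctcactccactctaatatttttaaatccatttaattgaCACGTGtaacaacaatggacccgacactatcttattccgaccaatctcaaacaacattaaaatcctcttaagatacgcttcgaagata
RBCS2B: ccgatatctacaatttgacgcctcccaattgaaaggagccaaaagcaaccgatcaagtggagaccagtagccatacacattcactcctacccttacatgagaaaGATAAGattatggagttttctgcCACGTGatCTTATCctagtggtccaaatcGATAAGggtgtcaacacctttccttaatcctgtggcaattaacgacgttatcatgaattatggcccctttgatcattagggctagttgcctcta
The RBCS2B window holds 1 G-box 123 bases before the gene start with I-box cores at 146, 115 and 94 bases, and the LHCA4 window 1 G-box at 88 bases. A G-box was found in 5 of the 22 windows of the list (22.7%) and an I-box core also in 5. Over 20133 windows of tested genes the shares were 7.10% and 12.5%, and in the photosystem list 19.2% and 26.9%. In the clock list the shares were 33.3% and 18.5%, in the root hair list 0% and 6.67%, and in the cell division list 0% and 15.4%. Among genes at least 2-fold lower in roots they were 7.84% and 15.3%, and among those at least 2-fold higher 6.87% and 12.8%. LHCA4, a photosystem I antenna gene, had 24.2, 22.7 and 22.8 FPKM in WT roots, against 3494, 3519 and 3416 FPKM in WT shoots (−7.17, adjusted p = 5.82e-15).

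Some plastid enzymes have separate leaf-type and root-type isoforms. Of the 17 isoform genes measured 10 were higher and 7 lower in WT roots (against 45.5% and 42.5% of all genes). All 17 were called with no overlap, as most genes were (87.9% called and 88.4% without overlap). Ferredoxin carries electrons from photosystem I in leaves and towards nitrite and glutamate synthesis in roots. FD3 (AT2G27510), the root type, had 191, 193 and 193 FPKM in WT roots, against 38.8, 37.8 and 35.6 FPKM in WT shoots (2.33, adjusted p = 6.25e-12). The leaf type FD2 (AT1G60950; FED A in the table) had 24.6, 23.96 and 23.2 FPKM in WT roots, against 1408, 1431 and 1362 FPKM in WT shoots (−5.82, adjusted p = 1.83e-14). FD3 was thus the more abundant ferredoxin in every root library and FD2 in every shoot library. FD1 (AT1G10960), the minor leaf type, had 19.4 ± 1.06 FPKM in WT roots and 347 ± 2.64 in WT shoots (−4.09). Reductases that link ferredoxin to NADP divided in the same way. The root types were RFNR2 (AT1G30510), at 125 ± 1.83 FPKM in WT roots and 11.1 ± 0.229 in WT shoots (3.37), and RFNR1 (AT4G05390, 1.39). The leaf types were LFNR2 (AT1G20020; FNR2 in the table), at 0.434 ± 0.0599 FPKM in WT roots and 425 ± 5.805 in WT shoots (−8.22), and LFNR1 (AT5G66190, −6.59).

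Isoforms of plastid glutamate synthase and of sugar oxidation were also compared. Ferredoxin-dependent GLU1 (AT5G04140) had 1.34, 1.06 and 1.29 FPKM in WT roots, against 342, 347 and 349 FPKM in WT shoots (−7.28). Its relative GLU2 (AT2G41220) had 84.6, 82.9 and 85.5 FPKM in WT roots, against 12.5, 12.6 and 12.5 FPKM in WT shoots (2.65). The NADH-dependent GLT1 (AT5G53460) had 268 ± 6.41 FPKM in WT roots and 84.5 ± 0.812 in WT shoots (1.65). GLU1 was the lowest of the 3 in every root library and the highest in every shoot library. Glucose 6-phosphate dehydrogenase, which makes NADPH without light, was higher in roots for G6PD2 (AT5G13110, 1.22) and G6PD3 (AT1G24280, 1.47) and lower for G6PD1 (AT5G35790), at 2.12 ± 0.236 FPKM in WT roots and 78.98 ± 0.279 in WT shoots (−4.68). The plastid glyceraldehyde phosphate dehydrogenases of glycolysis, GAPCP1 (AT1G79530) and GAPCP2 (AT1G16300), rose (3.27 and 1.69). GAPCP1 had 146 ± 2.19 FPKM in WT roots and 14.3 ± 0.685 in WT shoots. HEMA1 (AT1G58290), the glutamyl-tRNA reductase of leaf tetrapyrrole synthesis, had 21.4 ± 0.389 FPKM in WT roots and 161 ± 1.88 in WT shoots (−2.85), while HEMA2 (AT1G09940) was slightly higher in roots, at 13.6 ± 0.221 FPKM in WT roots and 9.997 ± 0.266 in WT shoots (0.41). HEMA1 was the more abundant of the pair in both organs. FD4 (AT5G10000) reached at most 0.103 FPKM and was not compared.

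**Figure D2:**
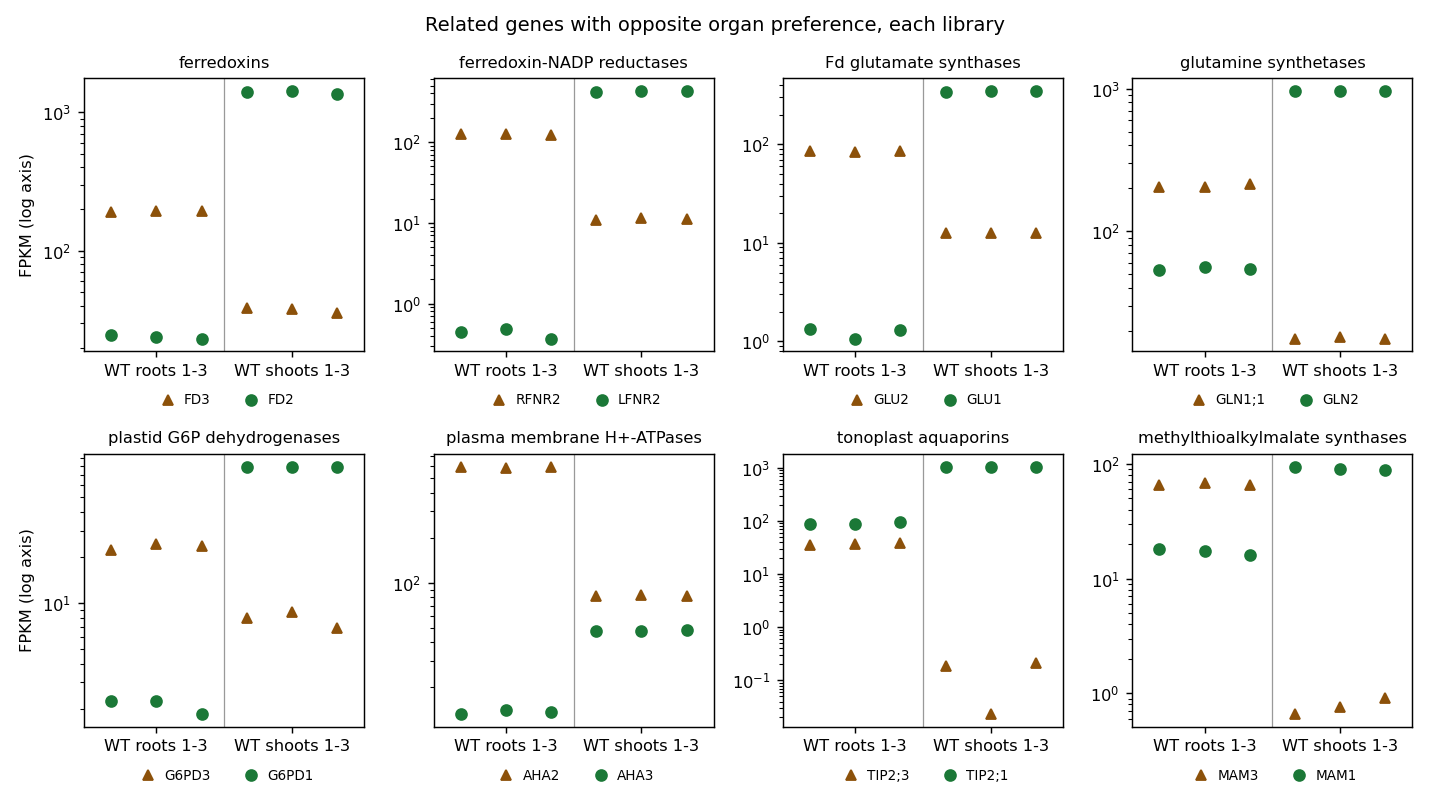
FPKM (log axis) of 8 pairs of related genes in each of the 3 WT root libraries (left) and 3 WT shoot libraries (right). Brown triangles mark the gene that was higher in roots and green circles the gene that was lower. In the first 5 panels and that of MAM3 and MAM1 the order of the 2 genes turns over between the organs, while AHA2 stays above AHA3 and TIP2;1 above TIP2;3 in both.

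Genes of stomata, leaf polarity and the shoot apex were mostly lower in roots, by differing amounts. All 14 stomatal genes fell (median −3.26). EPF2 (AT1G34245), a peptide that spaces stomata, had 0 FPKM in all 3 libraries of WT roots, against 15.3, 13.7 and 12.4 FPKM in WT shoots, at least 554-fold lower in roots (taking 3 fragments over the 3 root libraries as the floor). TMM (AT1G80080), its receptor-like partner, had 0.113, 0.200 and 0.184 FPKM in WT roots, against 19.01, 20.4 and 22.1 FPKM in WT shoots (−4.202). STOMAGEN (AT4G12970), a peptide made in the leaf mesophyll, had 0.0145 ± 0.0127 FPKM in WT roots and 29.2 ± 1.94 in WT shoots (−4.89). POLAR (AT4G31805, −3.90), a protein of dividing stomatal precursors, fell as well. Of the 14 leaf polarity and shoot apex genes 13 fell, 10 of them by at least 2-fold, and KAN1 did not pass (median −2.27). The smaller falls were those of KNAT1 (−0.92), PHV (−0.91) and PHB (−0.53). When libraries were scaled to summed fragments or by quantiles, 13 genes of the list were still lower and 1 rose. FIL (AT2G45190; AFO in the table), a regulator of the lower leaf side, had 0 FPKM in all 3 libraries of WT roots, against 42.9, 43.1 and 42.3 FPKM in WT shoots, at least 2547-fold lower in roots. Its relative YAB5 (AT2G26580) had 0 FPKM in all 3 libraries of WT roots, against 18.4, 20.5 and 21.1 FPKM in WT shoots, at least 1091-fold lower, and YAB3 (AT4G00180) also fell (−5.64). TCP4 (AT3G15030), which ends cell division in leaves, had 2.80 ± 0.0647 FPKM in WT roots and 52.4 ± 1.03 in WT shoots (−3.81). The shoot meristem genes WUS, CLV3 and CUC2 did not reach the filter, with highest values of 0.178, 0.587 and 1.08 FPKM.

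Cuticle genes fell in 11 of 12 cases (median −3.20) and LACS2 did not pass; scaled to summed fragments 1 rose. The wax elongase CER6 (AT1G68530; KCS6 in the table) had 4.53, 4.72 and 4.67 FPKM in WT roots, against 158, 161 and 155 FPKM in WT shoots (−4.82, adjusted p = 6.97e-14). DCR (AT5G23940), a cutin acyltransferase, had 1.83 ± 0.295 FPKM in WT roots and 71.2 ± 1.796 in WT shoots (−4.68). The epidermal regulators ATML1 (AT4G21750, −3.90) and PDF2 (AT4G04890, −3.94) also fell, and ATML1 had 2.36 ± 0.0820 FPKM in WT roots and 48.98 ± 0.681 in WT shoots. All of these kept a low level in every root library.

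Root hair genes were at or near 0 in shoots. All 15 root hair genes were at least 2-fold higher in WT roots (median 3.31, against 20.8% of all genes). PRP3 (AT3G62680), a root hair wall protein, had 22.1, 23.9 and 25.96 FPKM in WT roots, against 0 FPKM in all 3 libraries of WT shoots, at least 1107-fold higher. EXPA7 (AT1G12560), an expansin of hair growth, had 20.1, 18.3 and 18.4 FPKM in WT roots, against 0 FPKM in all 3 libraries of WT shoots, at least 799.7-fold higher. LRX1 (AT1G12040), a wall protein of hairs, had 13.7, 12.4 and 14.53 FPKM in WT roots, against 0 FPKM in all 3 libraries of WT shoots, at least 1377-fold higher. Of the 15 genes 8 had no fragment in any shoot library. The NADPH oxidase RBOHC (AT5G51060; RHD2 in the table), needed for hair tip growth, had 20.4, 19.4 and 19.8 FPKM in WT roots, against 0.0169, 0.0406 and 0.0151 FPKM in WT shoots (4.35). The genes that set hair or trichome fate, which both organs use, split into 3 higher and 5 lower of 11 (median −0.17), or 4 and 2 when scaled to summed fragments, where the median turned to 0.074. GL1 (AT3G27920; MYB0 in the table), which starts leaf trichomes, had 0 FPKM in all 3 libraries of WT roots, against 3.81, 3.91 and 4.17 FPKM in WT shoots, at least 181-fold lower. Its relative WER (AT5G14750; MYB66), which acts in the root, had 8.24, 9.10 and 9.91 FPKM in WT roots, against 1.15, 1.23 and 1.15 FPKM in WT shoots (2.21). CPC (AT2G46410, 1.11), which moves between cells to set hair fate, and GL3 (AT5G41315, 1.14), which acts in both organs, were higher in roots.

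The endodermis genes all rose (9 of 9, median 3.36). CASP1 (AT2G36100), a scaffold of the Casparian strip, had 120.4, 119 and 126 FPKM in WT roots, against 4.401, 5.82 and 4.11 FPKM in WT shoots (4.42, adjusted p = 1.27e-10). CASP2 (AT3G11550) had 46.3 ± 1.01 FPKM in WT roots and 2.17 ± 0.171 in WT shoots (3.90). Their regulator MYB36 (AT5G57620) had 13.2 ± 0.371 FPKM in WT roots and 0.231 ± 0.120 in WT shoots (3.54). PER64 (AT5G42180), the peroxidase that polymerises the strip's lignin, also rose (4.18). Shoot levels of these genes were low but above 0 in every library. Suberin genes rose in 12 of 14 cases (median 4.32). The fatty acid ω-hydroxylase CYP86A1 (AT5G58860) had 113, 114 and 114 FPKM in WT roots, against 0.418, 0.745 and 0.695 FPKM in WT shoots (6.15, adjusted p = 3.00e-12). The exporter ABCG6 (AT5G13580) had 40.6 ± 0.737 FPKM in WT roots and 0.0708 ± 0.0187 in WT shoots (5.28), and the reductases FAR5 (AT3G44550, 4.83) and FAR4 (AT3G44540, 4.44) rose too. Against the list, the elongase KCS20 (AT5G43760), which also serves cuticle wax, had 47.4 ± 2.35 FPKM in WT roots and 98.3 ± 0.834 in WT shoots (−1.04). FAR1 (AT5G22500) had 11.6 ± 0.148 FPKM in WT roots and 14.6 ± 0.494 in WT shoots (−0.30, adjusted p = 8.12e-05). The FAR1 call was lost when scaled to summed fragments (0.015).

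The root cap genes rose in 5 of 5 cases (median 2.104). SMB (AT1G79580), a NAC factor of cap maturation, had 3.74, 3.48 and 3.34 FPKM in WT roots, against 0 FPKM in all 3 libraries of WT shoots, at least 279-fold higher in roots. BRN2 (AT4G10350; NAC070), of the same family, had 2.13, 2.24 and 1.97 FPKM in WT roots, against 0 FPKM in all 3 libraries of WT shoots, at least 109.6-fold higher. BRN1 (AT1G33280, 2.104) also rose, and the cellulase CEL5 (AT1G22880) had 8.92 ± 0.118 FPKM in WT roots and 0.144 ± 0.0557 in WT shoots (3.12). Meristem and lateral root genes rose in 14 of 18 cases and 2 fell (median 1.37). PLT1 (AT3G20840), which maintains the root stem cells, had 5.09, 4.26 and 4.38 FPKM in WT roots, against 0.0117, 0 and 0.0316 FPKM in WT shoots (2.46). UPB1 (AT2G47270), a regulator of the switch from division to elongation, had 19.2, 18.1 and 19.7 FPKM in WT roots, against 0.0309, 0 and 0 FPKM in WT shoots (4.31). MGP (AT1G03840, 2.83) and NUC (AT5G44160, 2.57), zinc finger partners of ground tissue patterning, rose too. The receptor kinase ACR4 (AT3G59420; CR4 in the table) was lower in roots, at 2.02 ± 0.130 FPKM in WT roots and 9.02 ± 0.720 in WT shoots (−1.73). SCR (AT3G54220), which patterns the ground tissue, had 13.6 ± 0.668 FPKM in WT roots and 21.4 ± 0.780 in WT shoots (−0.62). WOX5 (AT3G11260), the organiser gene of the stem cell niche, was near 1 FPKM in both organs and did not pass (adjusted p = 0.779).

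**Figure D3:**
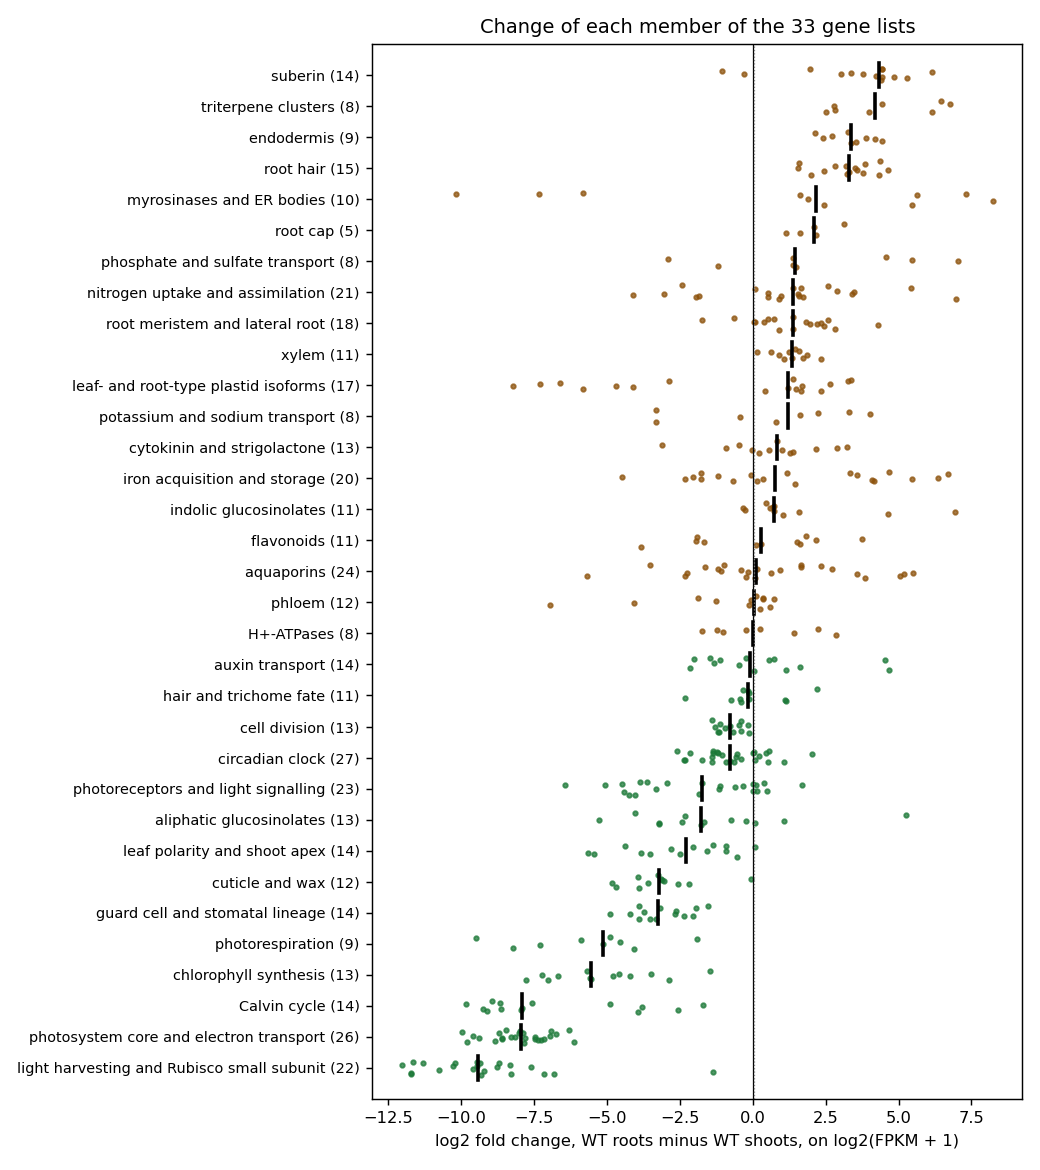
Log2 fold change (WT roots minus WT shoots, on log2(FPKM + 1)) of every tested member of the 33 gene lists, with the number tested in parentheses. Each point is a gene, the black bar the list median, and brown or green marks a median above or below 0; suberin (4.32) is at the top and light harvesting (−9.40) at the bottom. Medians of the hair and trichome fate, phloem, H+-ATPase and auxin transport lists change sign under another setting.

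The counts of a list are to be read against the 45.5% of all genes called higher and the 42.5% called lower. Aquaporins (13 and 11 of 24), iron genes (11 and 7 of 20), H+-ATPases (4 and 4 of 8), auxin transport (6 and 7 of 14) and phloem (5 and 5 of 12) were near these shares. Where genes were at 0 in an organ, the fitted medians depend on the 1 added to each value. On plain log2 ratios of the group means, with such genes at their bound, the medians were 8.84 for root hair, 6.78 for root cap, 7.38 for suberin, 9.22 for the triterpene clusters, 5.69 for phosphate and sulfate transport and −7.87 for stomatal genes. For H+-ATPases it was −0.015, of the opposite sign to the fitted one.

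Vascular tissue occurs in both organs. Xylem genes rose in 10 of 11 cases (median 1.33). The protease XCP1 (AT4G35350), which clears dying vessel cells, had 72.98, 73.7 and 70.5 FPKM in WT roots, against 14.2, 13.2 and 13.3 FPKM in WT shoots (2.34, adjusted p = 1.45e-11). The lignin laccases LAC11 (AT5G03260, 1.88), LAC4 (AT2G38080, 1.72) and LAC17 (AT5G60020, 1.60) rose as well. Phloem genes split into 5 higher and 5 lower of 12 (median 0.030), 8 and 4 when scaled to summed fragments, and none was 2-fold higher. The sugar exporters that load the leaf phloem fell furthest. SWEET11 (AT3G48740) had 0.0829, 0.2505 and 0.143 FPKM in WT roots, against 144, 137 and 144 FPKM in WT shoots (−6.95). SWEET12 (AT5G23660) had 1.44 ± 0.332 FPKM in WT roots and 39.2 ± 1.103 in WT shoots (−4.05). SUC2 (AT1G22710), the companion cell sucrose carrier, and PP2-A1 (AT4G19840), a phloem lectin, fell by less (−1.88 and −1.27), and SUC2 kept 23.98 ± 0.146 FPKM in WT roots and 90.7 ± 2.39 in WT shoots.

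Uptake and long-distance transport of minerals was divided between the organs. Nitrogen genes were higher in roots in 16 of 21 cases and lower in 5 (median 1.39). NRT1.5 (AT1G32450), which loads nitrate into the root xylem, had 832, 822 and 835 FPKM in WT roots, against 5.40, 5.32 and 6.16 FPKM in WT shoots (6.97, adjusted p = 7.57e-14). The ammonium transporter AMT1;3 (AT3G24300) had 73.2, 71.9 and 78.6 FPKM in WT roots, against 0.645, 0.853 and 0.821 FPKM in WT shoots (5.41). Glutamine synthetase exchanged isoforms. Cytosolic GLN1;1 (AT5G37600; GSR 1 in the table) had 209 ± 5.66 FPKM in WT roots and 17.8 ± 0.275 in WT shoots (3.48). Plastid GLN2 (AT5G35630; GS2) had 54.9 ± 1.32 FPKM in WT roots and 959.8 ± 4.26 in WT shoots (−4.10). The asparagine synthetase ASN2 (AT5G65010) was lower in roots, at 16.4 ± 0.316 FPKM in WT roots and 141 ± 1.39 in WT shoots (−3.02).

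Phosphate and sulfate transporters rose in 6 of 8 cases. PHT1;1 (AT5G43350), the main root phosphate importer, had 166, 169 and 172 FPKM in WT roots, against 0.373, 0.319 and 0.223 FPKM in WT shoots (7.03, adjusted p = 1.20e-13). PHO1 (AT3G23430), which loads phosphate into xylem, had 186 ± 1.56 FPKM in WT roots and 6.89 ± 0.195 in WT shoots (4.57). SULTR1;2 (AT1G78000), the root sulfate importer, had 76.1 ± 0.541 FPKM in WT roots and 0.774 ± 0.161 in WT shoots (5.45). SULTR2;1 (AT5G10180), which moves sulfate within the vasculature, was on the shoot side, at 6.49, 6.26 and 7.10 FPKM in WT roots, against 55.5, 54.8 and 55.4 FPKM in WT shoots (−2.89), and so was SULTR2;2 (AT1G77990, −1.20). PHT1;1 has near-identical copies, and one of them, PHT1;3 (AT5G43360), was listed at 0 in all libraries, so the split among them is uncertain. Of 8 potassium and sodium transport genes 5 rose and 3 fell, or 5 and 2 scaled to summed fragments. AKT1 (AT2G26650; KT1 in the table), for uptake, had 46.2 ± 1.02 FPKM in WT roots and 3.85 ± 0.401 in WT shoots (3.29). Its regulatory subunit KC1 (AT4G32650; KAT3) had 44.3 ± 0.944 FPKM in WT roots and 1.77 ± 0.148 in WT shoots (4.03). On the shoot side, the guard cell channel KAT1 (AT5G46240) had 0.00467 ± 0.00409 FPKM in WT roots and 9.08 ± 0.677 in WT shoots (−3.32). The phloem channel AKT2 (AT4G22200; KT2/3) had 0.343 ± 0.145 FPKM in WT roots and 12.4 ± 0.161 in WT shoots (−3.32).

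Iron genes were higher in 11 of 20 cases and lower in 7 (median 0.77), not far from the 45.5% and 42.5% of all genes. The 4 leading rises included the iron importer. IRT1 (AT4G19690), which takes up ferrous iron, had 44.98, 46.5 and 46.3 FPKM in WT roots, against 0.0711, 0.0683 and 0.0796 FPKM in WT shoots (5.45, adjusted p = 4.68e-13). F6'H1 (AT3G13610), which makes coumarins that mobilise iron, had 109 ± 2.98 FPKM in WT roots and 0.0610 ± 0.0309 in WT shoots (6.69). ABCG37 (AT3G53480), which exports phenolics, had 138 ± 2.87 FPKM in WT roots and 0.708 ± 0.183 in WT shoots (6.35). The nicotianamine synthase NAS2 (AT5G56080) had 25.6 ± 1.08 FPKM in WT roots and 0.0392 ± 0.0383 in WT shoots (4.68). All 4 were above every shoot library in each root library, and 88.4% of all tested genes had no overlap between the organs. By contrast BGLU42 (AT5G36890), which releases coumarins, had 8.76 ± 0.315 FPKM in WT roots and 14.7 ± 0.869 in WT shoots (−0.69). On the shoot side, the iron deficiency regulator BHLH100 (AT2G41240) had 0.696, 0.784 and 0.755 FPKM in WT roots, against 39.7, 35.5 and 38.9 FPKM in WT shoots (−4.48). Another nicotianamine synthase, NAS4 (AT1G56430), had 7.24 ± 0.291 FPKM in WT roots and 39.9 ± 0.192 in WT shoots (−2.31).

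**Figure D4:**
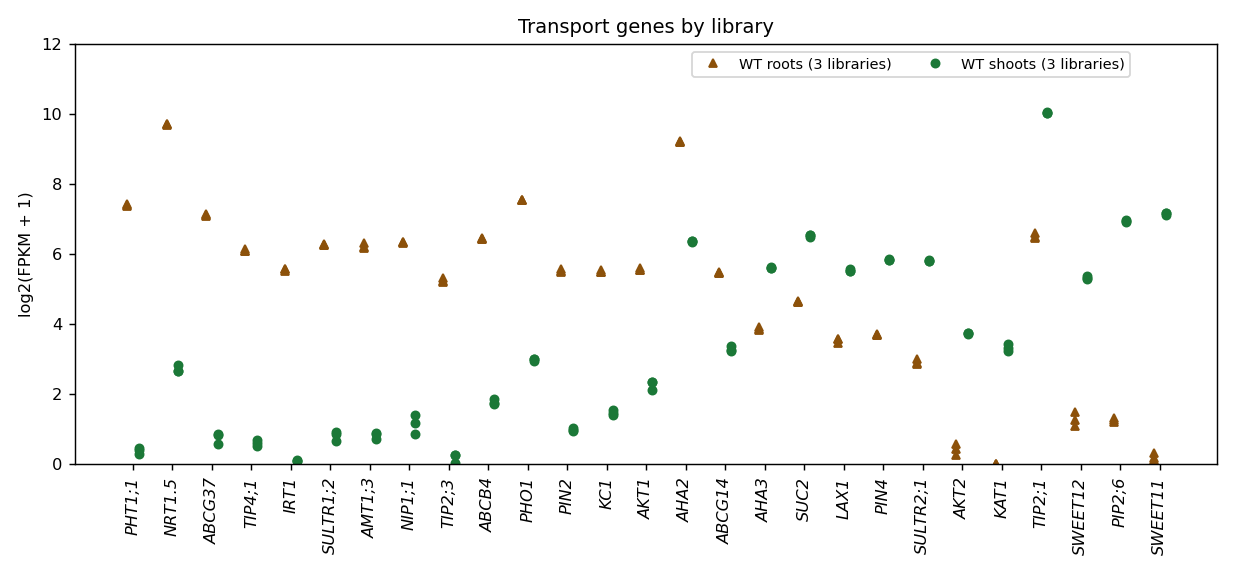
Level, as log2(FPKM + 1), of 27 transport genes in each of 3 WT root libraries (brown triangles) and 3 WT shoot libraries (green circles), ordered by log2 fold change from the highest, PHT1;1 (7.03), to the lowest, SWEET11 (−6.95). Within every gene the 2 groups of points are separate, as for 88.4% of all tested genes.

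Plasma membrane H+-ATPases, which pump protons out of the cell and power uptake and growth, differed by gene. AHA2 (AT4G30190; HA2 in the table), the main root pump, had 593, 585 and 596 FPKM in WT roots, against 81.2, 82.6 and 80.98 FPKM in WT shoots (2.84, adjusted p = 8.84e-14). AHA1 (AT2G18960) had 171, 167 and 170.5 FPKM in WT roots, against 142, 146 and 144 FPKM in WT shoots (0.24, adjusted p = 3.38e-06). AHA2 was the most abundant pump in every root library and AHA1 in every shoot library. The less abundant AHA4 and AHA7 were also on the root side. AHA4 (AT3G47950) had 6.46 ± 0.0405 FPKM in WT roots and 0.584 ± 0.0891 in WT shoots (2.24). AHA7 (AT3G60330) had 5.86 ± 0.177 FPKM in WT roots and 1.56 ± 0.253 in WT shoots (1.43). On the shoot side, AHA3 (AT5G57350), known from phloem companion cells, had 13.2, 14.1 and 13.7 FPKM in WT roots, against 47.5, 47.5 and 48.1 FPKM in WT shoots (−1.73, adjusted p = 5.90e-11). AHA11 (AT5G62670) had 16.7 ± 0.112 FPKM in WT roots and 40.1 ± 0.721 in WT shoots (−1.21). AHA5 (AT2G24520) had 3.42 ± 0.343 FPKM in WT roots and 7.95 ± 0.305 in WT shoots (−1.02). AHA8 (AT3G42640) had 4.66 ± 0.0573 FPKM in WT roots and 5.61 ± 0.401 in WT shoots (−0.22, adjusted p = 0.00693) but lay at 0.064 when scaled to summed fragments. Summed over the 11 listed genes, including those below the filter, WT roots held 804 to 819 FPKM and WT shoots 327 to 332. The list median was 0.0068 and changed sign with a pseudocount of 0.1 or voom. Genes annotated on the opposite strand overlap AHA11, AHA8, AHA7 and AHA4, and whether counting used strand is not stated. AHA6, AHA9 and AHA10 did not reach the filter, with highest values of 0, 0.138 and 0.835 FPKM.

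Aquaporins, channels for water and small solutes, split into 13 higher and 11 lower of 24 (median 0.10), or 16 and 8 with quantile normalization. TIP4;1 (AT2G25810), of the vacuole membrane, had 67.8 ± 1.37 FPKM in WT roots and 0.517 ± 0.0942 in WT shoots (5.50). TIP2;3 (AT5G47450), of the same membrane, had 36.9 ± 1.42 FPKM in WT roots and 0.142 ± 0.104 in WT shoots (5.06), and NIP1;1 (AT4G19030; NLM1 in the table) also rose (5.19). The deepest falls were those of a plasma membrane and another vacuolar gene. PIP2;6 (AT2G39010; PIP2E), of the plasma membrane, had 1.33, 1.41 and 1.48 FPKM in WT roots, against 119.8, 125 and 123 FPKM in WT shoots (−5.68). TIP2;1 (AT3G16240; DELTA-TIP) had 88.00, 87.6 and 96.2 FPKM in WT roots, against 1060.2, 1054 and 1045 FPKM in WT shoots (−3.53). The 24 genes together summed to 4162 to 4355 FPKM in WT roots and to 5628 to 5717 in WT shoots. In the auxin transport list 6 of 14 rose and 7 fell (median −0.078, but 0.25 scaled to summed fragments). The root tip efflux carrier PIN2 (AT5G57090; EIR1) had 44.5, 43.8 and 46.7 FPKM in WT roots, against 1.06, 0.960 and 0.943 FPKM in WT shoots (4.53). ABCB4 (AT2G47000) had 86.6 ± 1.07 FPKM in WT roots and 2.44 ± 0.205 in WT shoots (4.67), while PIN4 (AT2G01420) and the importer LAX1 (AT5G01240) fell (−2.15 and −1.996).

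Clock genes were more often lower in roots. Of 27 genes 18 fell and 6 rose (median −0.77), 17 and 9 when scaled to summed fragments. With no harvest time, phase and level cannot be told apart. CCA1 (AT2G46830), the morning repressor that the transgene carries, had 17.2, 16.2 and 17.9 FPKM in WT roots, against 44.9, 45.2 and 44.8 FPKM in WT shoots (−1.35, adjusted p = 9.11e-10). It stood at 172 to 179.6 FPKM in CCA1-ox roots and at 212 to 216 in CCA1-ox shoots. The clock coactivator LNK2 (AT3G54500) had 23.2, 21.6 and 23.7 FPKM in WT roots, against 102, 107 and 104 FPKM in WT shoots (−2.14), and its relatives LNK3 (AT3G12320, −2.33) and LNK4 (AT5G06980, −2.59) fell too. CHE (AT5G08330; TCP11 in the table), a repressor of CCA1, had 7.62 ± 0.428 FPKM in WT roots and 42.97 ± 0.457 in WT shoots (−2.35). Against the list, the evening complex gene ELF4 (AT2G40080) had 127, 136 and 137 FPKM in WT roots, against 30.7, 32.3 and 31.7 FPKM in WT shoots (2.04, adjusted p = 3.29e-11). GI (AT1G22770), an evening gene of flowering and clock, had 10.8, 10.2 and 10.5 FPKM in WT roots, against 4.31, 4.33 and 4.59 FPKM in WT shoots (1.09). ELF4 was the largest clock rise, and its root libraries lay well above its shoot libraries.

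CCA1 binds the evening element in promoters of evening genes. The core of this element (AATATCT, read as AGATATT on the other strand) was searched on both strands in the 250 bases before each RefSeq gene start. It was found in 14 of 27 clock windows (51.9%), against 9.96% of 20133 windows of tested genes, 10.9% among genes at least 2-fold higher in roots and 10.8% among those at least 2-fold lower. These shares describe letters in a window and not binding.

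Of the 23 light signalling genes 16 fell and 4 rose (median −1.75), or 15 and 7 scaled to summed fragments. GLK1 (AT2G20570; GPRI1 in the table), which switches on chloroplast genes, had 0.133, 0.234 and 0.218 FPKM in WT roots, against 103, 105 and 99.3 FPKM in WT shoots (−6.44, adjusted p = 2.30e-13). Its partner GLK2 (AT5G44190) had 4.79 ± 0.109 FPKM in WT roots and 122 ± 0.812 in WT shoots (−4.403). GNC (AT5G56860), a GATA factor of greening, had 0.111 ± 0.0775 FPKM in WT roots and 36.1 ± 0.107 in WT shoots (−5.07). PIF5 (AT3G59060; PIL6), which promotes shoot elongation, had 0.300 ± 0.00788 FPKM in WT roots and 28.3 ± 1.04 in WT shoots (−4.49). HY5 (AT5G11260), the activator of light responses, had 45.8, 41.98 and 43.1 FPKM in WT roots, against 14.1, 12.9 and 11.4 FPKM in WT shoots (1.6997, adjusted p = 1.23e-08), and its relative HYH (AT3G17609, 0.48) was higher as well. The regulators of greening were thus lower in every root library, and HY5 higher.

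For cytokinin and strigolactone, 9 of 13 genes rose and 3 fell (median 0.84). CYP735A2 (AT1G67110), which makes the trans-zeatin form, had 10.7 ± 0.580 FPKM in WT roots and 0.256 ± 0.0374 in WT shoots (3.22). The synthesis enzyme IPT5 (AT5G19040) had 7.06 ± 0.2502 FPKM in WT roots and 0.0775 ± 0.0122 in WT shoots (2.90). ABCG14 (AT1G31770), which exports cytokinin to the shoot, had 43.5 ± 0.589 FPKM in WT roots and 8.83 ± 0.521 in WT shoots (2.18). These were all on the root side. D27 (AT1G03055), the first enzyme of strigolactone synthesis, had 0.0414 ± 0.0247 FPKM in WT roots and 7.96 ± 0.597 in WT shoots (−3.10). The response gene ARR15 (AT1G74890) had 1.01 ± 0.101 FPKM in WT roots and 2.79 ± 0.410 in WT shoots (−0.91). Both were on the shoot side.

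Glucosinolates are defence compounds of the cabbage family. Of the 13 aliphatic glucosinolate genes 10 fell and 2 rose (median −1.78, 9 and 4 scaled to summed fragments). CYP79F1 (AT1G16410), which starts their core pathway, had 0.0141, 0.0177 and 0 FPKM in WT roots, against 37.6, 37.99 and 37.7 FPKM in WT shoots (−5.26). The activator MYB29 (AT5G07690) had 0 FPKM in all 3 libraries of WT roots, against 13.9, 16.5 and 16.1 FPKM in WT shoots, at least 1305-fold lower. The side chain oxidase FMOGS-OX1 (AT1G65860, −3.21) fell too. The chain-elongating enzymes went apart. MAM1 (AT5G23010) had 18.3, 17.6 and 15.99 FPKM in WT roots, against 95.00, 90.2 and 88.3 FPKM in WT shoots (−2.33). MAM3 (AT5G23020; IMS2 in the table), for longer chains, had 66.01, 68.03 and 65.4 FPKM in WT roots, against 0.654, 0.760 and 0.913 FPKM in WT shoots (5.25). CYP79F2 (AT1G16400), which like MAM3 serves long chains, was also higher in roots, at 15.6 ± 0.595 FPKM in WT roots and 6.87 ± 0.210 in WT shoots (1.08). Indolic glucosinolate genes rose in 9 of 11 cases (median 0.74). CYP81F4 (AT4G37410), which modifies the indole ring, had 661, 677 and 708 FPKM in WT roots, against 4.77, 4.90 and 4.195 FPKM in WT shoots (6.93, adjusted p = 1.27e-13). CYP81F2 (AT5G57220, 4.63), the regulator MYB122 (AT1G74080, 1.59) and CYP79B2 (AT4G39950, 1.04), which starts the pathway from tryptophan, rose by less on this scale. MYB122 was low, at 2.18 ± 0.343 FPKM in WT roots and 0.0503 ± 0.0438 in WT shoots, so the added 1 shrank its change. SUR1 (AT2G20610, −0.32) and UGT74B1 (AT1G24100, −0.26) were called lower, but their calls were lost when scaled to summed fragments (0.010 and 0.074).

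Myrosinases, which cleave glucosinolates on wounding, differed between the organs by gene. Of the 10 myrosinase and ER body genes 7 rose and 3 fell (median 2.16). TGG1 (AT5G26000) had 0, 0 and 0.0210 FPKM in WT roots, against 1151, 1164 and 1171 FPKM in WT shoots (−10.17). TGG2 (AT5G25980) had 0.0233, 0 and 0 FPKM in WT roots, against 159.8, 163 and 164 FPKM in WT shoots (−7.34). The root myrosinase TGG4 (AT1G47600) had 47.9, 49.2 and 49.6 FPKM in WT roots, against 0 FPKM in all 3 libraries of WT shoots, at least 3268-fold higher, and TGG5 (AT1G51470) averaged 43.3 FPKM in WT roots and was at 0 in WT shoots, at least 3034-fold higher. ER body β-glucosidases also divided. BGLU21 (AT1G66270) had 319 ± 9.20 FPKM in WT roots and 0.0619 ± 0.00565 in WT shoots (8.24). BGLU22 (AT1G66280) had 188 ± 2.18 FPKM in WT roots and 0.199 ± 0.0422 in WT shoots (7.30). BGLU18 (AT1G52400), induced in leaves by wounding, had 0.151 ± 0.0145 FPKM in WT roots and 64.4 ± 2.15 in WT shoots (−5.83). Each of these genes was at traces or 0 in the organ where it was lower. All 8 measured genes of the triterpene clusters, known from roots, rose (median 4.21). THAS1 (AT5G48010, chromosome 5, 19456837 to 19461706), which makes thalianol, had 103, 102 and 102 FPKM in WT roots, against 0.126, 0.131 and 0.263 FPKM in WT shoots (6.47). Its neighbours THAH (AT5G48000; CYP708A2, 6.15) and THAD (AT5G47990; CYP705A5, 6.75), which oxidise it, rose too. CYP71A16 (AT5G42590), of the marneral cluster, averaged 20.4 FPKM in WT roots and was at 0 in WT shoots, at least 1428-fold higher.

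Of the 11 flavonoid genes 7 rose and 4 fell. The flavonol activator MYB12 (AT2G47460) had 13.7, 14.2 and 14.2 FPKM in WT roots, against 0.0879, 0.101 and 0.126 FPKM in WT shoots (3.76). F3H (AT3G51240), an early enzyme, had 51.8 ± 1.72 FPKM in WT roots and 10.6 ± 0.185 in WT shoots (2.18). LDOX (AT4G22880), of the anthocyanin branch, had 0.0155 ± 0.0165 FPKM in WT roots and 2.92 ± 0.614 in WT shoots (−1.94). The flavonol rhamnosyltransferase UGT78D1 (AT1G30530) had 1.95 ± 0.304 FPKM in WT roots and 41.2 ± 1.14 in WT shoots (−3.84). Another flavonol activator, MYB111 (AT5G49330), was lower in roots, at 0.0247 ± 0.0112 FPKM in WT roots and 2.91 ± 0.671 in WT shoots (−1.92), and the early enzyme CHI (0.11) and the glucosyltransferase UGT78D2 (0.27) were slightly higher. All 13 cell division genes were called lower in roots (median −0.77), 5 of them by 2-fold, but scaled to summed fragments 10 fell and 1 rose. KNOLLE (AT1G08560; SYP111 in the table), the syntaxin of the dividing wall, had 22.9, 22.9 and 21.6 FPKM in WT roots, against 59.1, 62.9 and 60.3 FPKM in WT shoots (−1.40, adjusted p = 4.05e-10). The mitotic cyclin CYCB1;2 (AT5G06150; CYC1BAT) had 12.7 ± 0.497 FPKM in WT roots and 32.5 ± 0.194 in WT shoots (−1.29). The entry cyclin CYCD3;1 (AT4G34160) had 14.3 ± 0.493 FPKM in WT roots and 33.8 ± 0.420 in WT shoots (−1.19), and CYCA1;1 (AT1G44110, −1.17) was lower too.

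A total of 2460 genes did not pass. The most abundant of them was the ribosomal protein L14 gene AT4G27090, with 675, 683 and 710.0 FPKM in WT roots, against 703, 697 and 677 FPKM in WT shoots (−0.0064, adjusted p = 0.805), whose groups overlapped. It was followed by the methionine synthase ATMS1 (AT5G17920, adjusted p = 0.482), the thioredoxin TRX3 (AT5G42980, adjusted p = 0.0589), the ubiquitin gene UBQ6 (AT2G47110, adjusted p = 0.304) and the ribosomal protein L41 family gene AT3G08520 (adjusted p = 0.656). Scaled to summed fragments all 5 were called higher in roots, by 0.30 to 0.37 log2. Transcripts of the organelle genomes also differed. Of 70 chloroplast genes 69 were lower in roots (median −2.15), and of 20 mitochondrial genes 14 were higher and 3 lower (median 0.99). Chloroplast genes held 0.00204% to 0.00396% of fragments in WT roots and 0.0371% to 0.0451% in WT shoots. Mitochondrial genes held 0.215% to 0.256% in WT roots and 0.0175% to 0.0235% in WT shoots. The sources used here do not say whether polyadenylated RNA was selected.

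The WT organ difference was set beside that of CCA1-ox in a fit of all 12 libraries. In CCA1-ox 86.8% of the genes differed between roots and shoots. Of 8148 genes at least 2-fold apart in WT, 7962 (97.7%) were called the same way in CCA1-ox and 80 the other way. The median difference of those higher in WT roots was 1.93 in WT and 1.74 in CCA1-ox, and of those lower −2.105 in WT and −2.03 in CCA1-ox. The size differed between genotypes for 10404 of all genes (51.1%), and by at least 1 log2 for 868 of the 8148. Among the genes named by rule, which leave out some list members, the largest differences were GRP9, with 9.08 in WT and 4.77 in CCA1-ox (difference 4.305, SE 0.0691, adjusted p = 2.39e-14), and MAM3, with 5.25 and 1.52 (3.73, SE 0.0647, adjusted p = 4.94e-14). MAM3 averaged 66.5 ± 1.37 FPKM in WT roots and 0.775 ± 0.130 in WT shoots, and 73.5 ± 1.41 in CCA1-ox roots and 25.04 ± 0.382 in CCA1-ox shoots. For both genes the shoots of CCA1-ox held more than those of WT. CYP81F4, CYP86A1 and EXT3 followed, by 3.61, 2.78 and 2.62. CYP79F2 was on the root side in WT (1.08) and on the shoot side in CCA1-ox (−1.43).

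**Figure D5:**
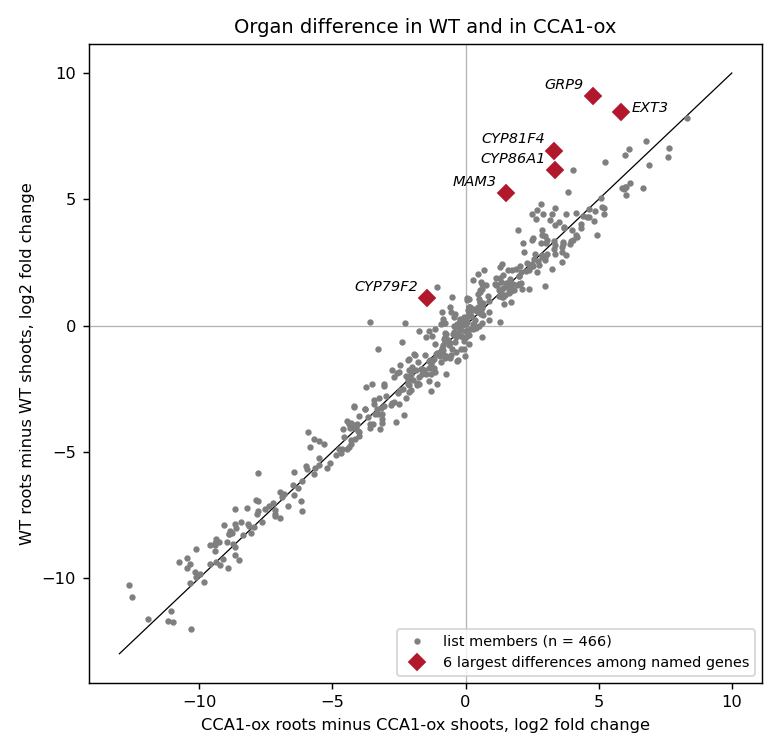
Organ difference (roots minus shoots, log2 fold change) in CCA1-ox on the x axis and in WT on the y axis, for the 466 tested list members (grey) and the 6 named genes with the largest difference between genotypes (red). Most points lie near the line of equality and the red points lie above it. CYP79F2 has opposite signs, 1.08 in WT and −1.43 in CCA1-ox, as have some grey points. Among the latter are HFR1 (0.156 in WT, −3.60 in CCA1-ox) and F3'H (1.54 and −1.05), which were not among the named genes.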

How the data were processed

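RNA from roots and shoots of WT and CCA1-ox seedlings was sequenced in 3 libraries a group. Per the labels' protocols, RNA was isolated on columns with DNase treatment and libraries were made with a stranded kit; the genome build was TAIR10 per the submitters' processing notes, and the aligner, counter and strand setting are left unstated there. The deposited table gives FPKM per gene, made by the authors with gene lengths and a library size. FPKM times length and size gave whole fragments within 0.1 for 100% of values; that size was 1.15 times the summed fragments in roots and 0.906 times in shoots.

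Genes with at least 1 FPKM in 3 of the 6 WT libraries were tested on log2(FPKM + 1) with limma 3.58.1 (R 4.3.3; trend, Benjamini-Hochberg adjusted p under 0.05; tested on simulated data), a second fit of 12 libraries giving the CCA1-ox values. Members and gene lists were chosen with earlier results of these data known. Named genes are the 8 highest rises and 8 deepest falls (at least 5 FPKM in the higher organ, no overlap), the 5 most abundant in each organ and among genes not called, up to 4 leading and 2 opposing called members of each list, all H+-ATPases and plastid isoforms, and the 6 largest differences between genotypes. LHCB4.3, LHCA4, WOX5, CCA1, MAM1, TGG4, TGG5, BGLU18, BGLU42, MYB111, CHI, UGT78D2, KNAT1, PHV and PHB were added after their values were seen. Deposited gene positions matched RefSeq TAIR10.1 for 99.95% of 32547 shared nuclear genes, and upstream sequence was read from that build, some of which is not reported here. A floor of 3 fragments over a group bounds folds against 0 and covers counting error only. Alternatives were other pseudocounts, filters, scalings, voom, a replicate block and leaving out each library.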

Additional observations from a re-analysis of the deposited data

Results flagged for a closer look

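For 6 named genes the organ difference was not the same size in WT and CCA1-ox, by limma's test of the difference itself over 12 libraries, adjusted over 20354 genes; 51.1% of all genes passed that test. GRP9, a glycine-rich protein gene, averaged 2545 ± 167 FPKM in WT roots and 3.71 ± 0.310 in WT shoots, and 1171 ± 18.2 in CCA1-ox roots and 41.8 ± 1.46 in CCA1-ox shoots (SD, 3 libraries each), a difference of 4.305 log2. For MAM3, of long-chain glucosinolates, the difference was 3.73, and for CYP81F4, of indolic glucosinolates, 3.61, with 682 ± 24.2 FPKM in WT roots and 4.62 ± 0.375 in WT shoots, and 683 ± 13.5 in CCA1-ox roots and 67.5 ± 0.983 in CCA1-ox shoots. CYP86A1, of suberin, differed by 2.78, with 114 ± 0.405 FPKM in WT roots and 0.619 ± 0.176 in WT shoots, and 138 ± 6.09 in CCA1-ox roots and 12.5 ± 0.623 in CCA1-ox shoots. The extensin EXT3 differed by 2.62, with 3993 ± 99.9 FPKM in WT roots and 10.4 ± 0.545 in WT shoots, and 4031 ± 232 in CCA1-ox roots and 69.5 ± 2.82 in CCA1-ox shoots. CYP79F2, the partner of MAM3 in the long-chain pathway, differed by 2.51, with 15.6 ± 0.594 FPKM in WT roots and 6.87 ± 0.210 in WT shoots, and 9.84 ± 0.194 in CCA1-ox roots and 28.3 ± 0.625 in CCA1-ox shoots. In all 6 the mean of CCA1-ox shoots was above that of WT shoots. These genes were picked as the largest such differences among the named genes.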

How the results depend on the processing

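Of the 188 named genes 183 were called and none of these overlapped between organs. Most were picked from called genes and 5 for not being called, so this count was largely set by the rule. Of all tested genes 87.9% were called, and libraries of the organs did not overlap for 88.4%. The values that follow are also of these genes, many of them picked for a large change. Over 15 alternative settings 2789 of 2811 values kept direction and side of the threshold, 0 lost a call without changing sign, and 7 values of ATMS1, TRX3 and UBQ6 gained one. Scaled to summed fragments, the sign turned for FAR1 (0.015), AHA8 (0.064), SUR1 (0.010), UGT74B1 (0.074), AT4G27090 (0.34), TRX3 (0.30) and AT3G08520 (0.31), and with quantile normalization for AT4G27090 (1.08), TRX3 (0.93) and AT3G08520 (0.58). List medians turned for hair and trichome fate (1.11 at a filter of 5 FPKM, 0.074 scaled to summed fragments), phloem (−0.12 at that filter), H+-ATPases (−0.0116 with pseudocount 0.1, −0.017 with voom) and auxin transport (0.25 scaled to summed fragments, 0.032 with quantiles). Leaving out each library gave 17474 to 17638 calls, −0.028 to 0.0082 for AT4G27090, −0.098 to 0.029 for AT3G08520, −0.018 to 0.064 for the phloem median and −0.017 to 0.030 for that of the H+-ATPases. Genes at least 2-fold higher in roots numbered 2495 with pseudocount 5, against 4236, since a larger pseudocount shrinks low genes. The replicate block gave 17808 calls, 9214 higher and 8594 lower. Same-numbered libraries did not deviate together from their group means (correlations −0.0047, −0.017 and −0.018). That spread may be technical, so these values cannot tell whether the numbers pair the samples, and the labels do not say. Low genes are limited by depth: 1 FPKM in a 1-kilobase gene was 43.5 to 51.8 fragments in WT roots and 35.9 to 40.1 in WT shoots.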

Other observations

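Gene families were described by the product names of RefSeq, which 19388 tested genes carry; families and genes were chosen after their values were seen, and no family was tested. Genes with the product name of the peroxidase superfamily, DOX1 among them, stood out by count, with 39 of 48 members at least 2-fold higher in WT roots and 4 lower (81.25% and 8.33%, against 20.8% and 19.2% of all tested genes); AT5G64100 averaged 453 FPKM in WT roots and 0.766 in WT shoots, and AT1G71695 10.09 in WT roots and 124 in WT shoots. Proteins with the cysteine/histidine-rich C1 domain were higher in 55 of 76 cases and lower in 5, dirigent-like proteins, which guide lignan coupling, in 14 of 20 and 3, and mannose-binding lectins in 15 of 22 and 3. Within the lectins, AT1G52070 averaged 77.9 FPKM in WT roots and was listed at 0 in WT shoots, and AT1G52100 averaged 1.07 in WT roots and 77.7 in WT shoots. Genes named as transporters of the MtN21/EamA family were higher in 22 of 35 cases and lower in 5. GDSL lipases went the other way, 10 higher and 25 lower of 45 (22.2% and 55.6%). The SAUR growth genes were above the shares of all genes on both sides, 21 higher and 31 lower of 56 (37.5% and 55.4%). Of these, AT5G50760 averaged 49.1 FPKM in WT roots and 0.2955 in WT shoots. AT4G38840 was listed at 0 in WT roots and at 97.9 FPKM in WT shoots.

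Runs of neighbours on 1 side were sought among the compared genes in chromosome order, so genes that missed the filter were passed over. A run took genes called at least 4-fold to the same side, as were 2025 genes higher and 2091 lower of 20354. On chromosome 4, 8751320 to 8813593, 7 such genes were higher in WT roots (log2 fold changes 2.29 to 7.20), with shoot means of 0.249 FPKM or less. Among them were the triterpene synthase PEN1, CYP705A1 and the acyltransferase gene BIA1. BARS1 (AT4G15370), whose locus number falls within this run, averaged 0.165 FPKM in WT roots and was not compared. On the same chromosome, 11844242 to 11857362, 7 genes, most of them annotated as lipid transfer or seed storage proteins, were lower (−7.11 to −2.18), with root means of 0.0925 FPKM or less. On chromosome 1, 9126737 to 9150250, 6 genes, among them 4 berberine-type oxidases and the ureide permease UPS5, were higher (2.08 to 5.35). Members of a run may share fragments where they are close copies.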
